A study of Rattus norvegicus with 4 samples.

Results

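The liver of a rat that had undergone partial hepatectomy and received control cells was compared, gene by gene, with the liver of a naive rat, to describe which hepatic functions lay near the naive level and which did not. Each side of the comparison was 1 library, so 2 of the 4 libraries of the study enter it directly. Partial hepatectomy is the surgical removal of several lobes of the liver, and the lobes that stay in place grow back to about the former mass. All rats were of the Lewis strain with the RT1L allotype, and poly(A) RNA of liver tissue was sequenced on an Illumina MiSeq. The naive liver carried only the label of a naive control. The liver called siRNC here came from a hepatectomised rat given, into a vein, the cells labelled ASCs-siRNC. The saline liver came from a hepatectomised rat given saline, and the miR-27b liver from one given the cells labelled ASCs-miR27b. The labels spell out neither ASCs, read here as adipose-derived stem cells, nor siRNC, read here as a control oligonucleotide. No source used here gives the age of the rats, the interval from surgery to collection or the hour of collection. Nor does any say whether a library stands for 1 rat or a pool. The hepatectomised livers came from different animals and no time course was sampled, so "near naive" describes a level and not a recovery that was followed.

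Every value below is a log2 difference from the naive library, where 1 is 2-fold higher and -1 is 2-fold lower, unless another quantity is named. The deposited table holds log2 values set to a baseline within each gene, so it gives differences between libraries and not levels of genes. The table has 31457 rows, of which 12874 were not at 0 throughout, and 10167 genes remained once low levels were filtered out. Size factors of the naive, saline, siRNC and miR-27b libraries were 0.977, 1.04, 1.01 and 0.956, so their relative depths were close, while their total reads are not recoverable from these values. With 1 library a group there is no replicate check, no test between conditions and no estimate of the spread between animals. Where a gene's reads could be recovered from the steps of its values, these inferred reads, some of which may be wrong, are given with an exact conditional binomial 95% interval of the log2 ratio, which covers counting error only. In bulk tissue, fewer cells of a type and less RNA per cell cannot be told apart. The 5 hepatocyte markers Alb, Ttr, Tf, Apoa1 and Serpina1 were all in the class of at least 256 normalized reads and lay between -0.40 and 0.47 in the siRNC liver.

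After partial hepatectomy, hepatocytes that were at rest enter the cell cycle, while the same cells go on making plasma proteins, glucose, urea and bile acids. Cytokines such as interleukin 6 prime this response, growth factors such as Hgf drive it, and factors such as TGF beta restrain it. Macrophages, endothelium and stellate cells, the cells that store retinoids and can lay down matrix, follow the hepatocytes in remodelling the tissue.

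In the siRNC liver, 723 genes lay 2-fold or more above the naive liver, 7.11% of those measured, and 413 lay 2-fold or more below it, 4.06%, so 1136 genes or 11.2% were apart by that measure. A total of 7108 genes, 69.9%, lay within 0.5 of naive. The median gene was at -0.0023, and the quartiles were -0.29 and 0.31. Of 53 lists of genes by function or cell type, 49 had at least 5 measured members. A list is called near naive where its median lay within 0.25 of 0, at least 50% of its members lay within 0.5 and at most 20% were 2-fold or more apart. It is called away where its median was at least 0.5 from 0. By these rules 23 lists were near naive, 8 were higher, 1 was lower and 17 lay in between. In the saline liver, which is compared with the same naive library, 19 lists were near naive, 9 were higher and 3 lower.

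**Figure D1:**
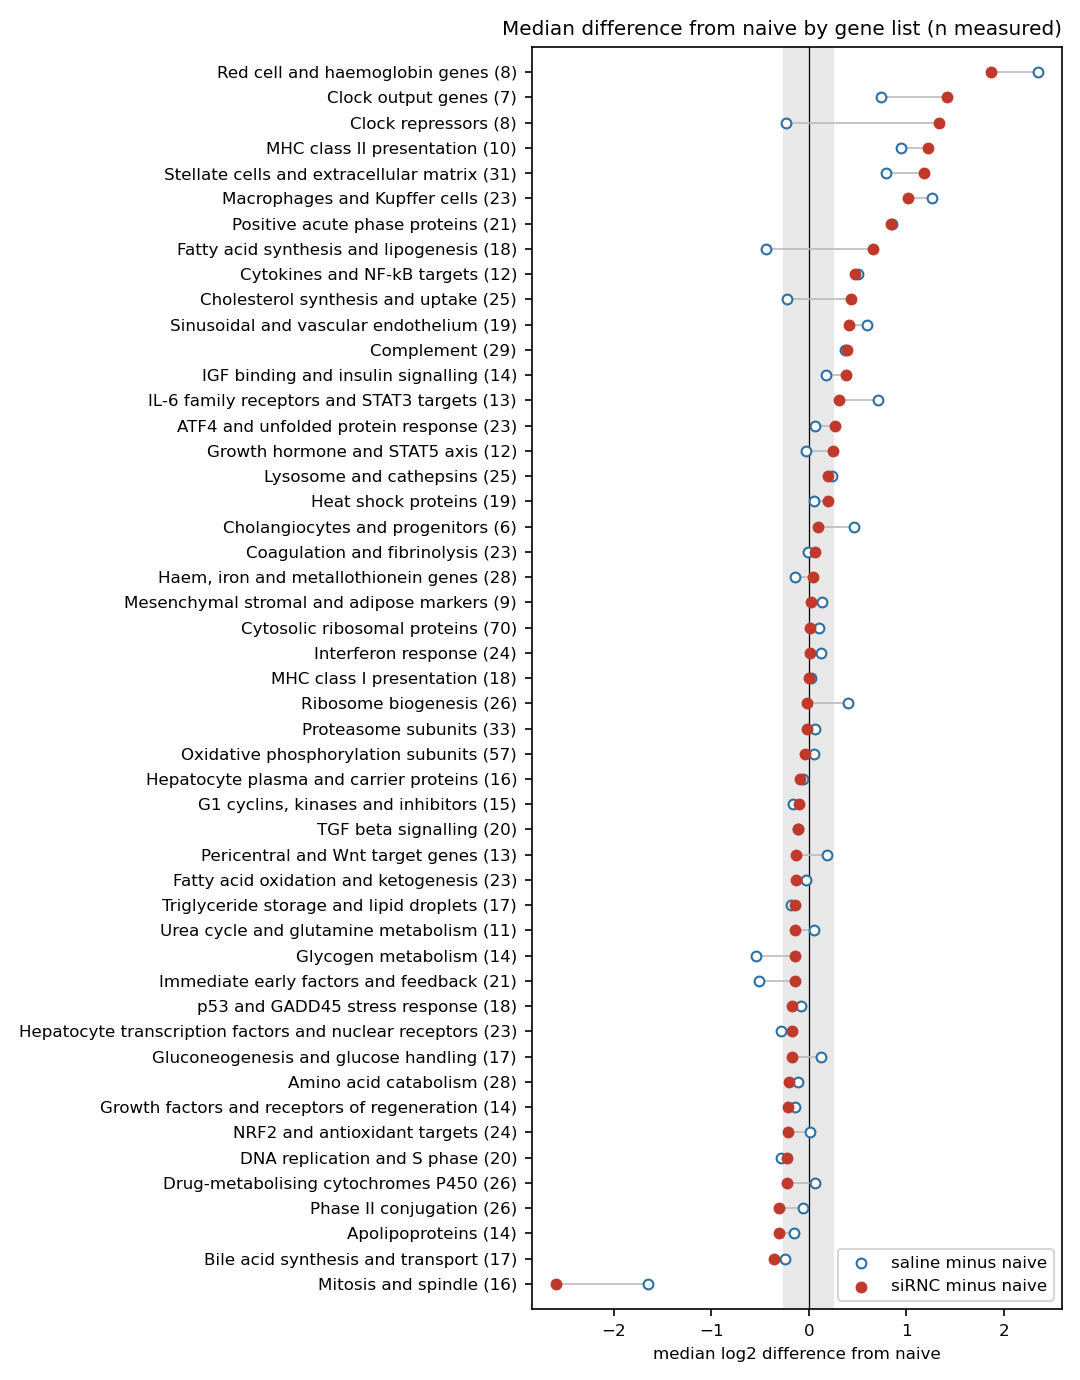
Median log2 difference from naive of each of the 49 lists with at least 5 measured genes (number in brackets), as filled points for the siRNC liver and open points for the saline liver; the grey band spans 0.25 on each side of 0. The mitosis list is the lowest at -2.60 and the red cell list the highest at 1.87 in the siRNC liver, and the lipogenesis and clock repressor lists lie on opposite sides of 0 in the 2 livers.

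The energy and protein machinery of the liver cell lay close to naive. Of 57 measured subunits of oxidative phosphorylation, the mitochondrial respiratory chain and ATP synthase, 56 lay within 0.5 of naive, against 69.9% of all genes, and their median was -0.04. The exception was Cox6a1, a subunit of cytochrome oxidase, at -0.52, and the highest member was the ATP synthase subunit Atp5j at 0.46. Of 33 proteasome subunits, 31 lay within 0.5, with a median of -0.02 and with Psmd11 lowest at -0.66. Of 70 cytosolic ribosomal proteins, 66 lay within 0.5 around a median of 0.02. The 3 members at least 2-fold lower were Rps2 at -2.97, Rpl9 at -1.16 and Rpl13 at -1.02. Rps2 was also low in the saline (-3.23) and miR-27b (-4.68) livers, and so was its processed copy Rps2-ps6, at -2.89 in the siRNC liver. Reads of Rps2 and such copies may be split by the counting, so its value is uncertain.

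Genes that build ribosomes, which growing cells need, were near naive in the siRNC liver with a median of -0.01, while the median was 0.41 in the saline liver. Of 26 measured members, 22 lay within 0.5 and none was 2-fold apart, against 69.9% and 11.2% of all genes. Rrs1, a ribosome assembly factor, was at 0.61 in the siRNC, 1.32 in the saline and 0.38 in the miR-27b liver. Nop56, a core protein of the particles that modify ribosomal RNA, was at -0.46, 0.46 and -0.11 in the same order. Heat shock proteins were near naive, with a median of 0.20 and 15 of 19 within 0.5, against 69.9% of all genes. The collagen chaperone Serpinh1 stood above the others at 1.32. Lysosomal genes were near naive at 0.20, with Ctss (1.10), Lgmn (1.07) and Cd63 (0.97) as their highest members.

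The secreted products of the hepatocyte were near naive as well. Of 16 plasma and carrier proteins, 15 lay within 0.5, against 69.9% of all genes, and the median was -0.09. Albumin, Alb, was at -0.08, the vitamin D carrier Gc at 0.02, the thyroid hormone carrier Ttr at -0.40 and the iron carrier Tf at 0.47. The exception was Serpina7, the thyroxine-binding globulin, at 1.62, and it was at 2.17 in the saline and 1.86 in the miR-27b liver. Of 23 coagulation and fibrinolysis genes, 20 lay within 0.5, against 69.9% of all genes, with a median of 0.06. The urokinase gene Plau (1.41) and the hepatocyte mitogen Fgl1 (1.51) were at least 2-fold higher. Apolipoproteins lay in between at a median of -0.31, and none of 14 was above naive, against 49.8% of all genes. Their differences were small, from -0.05 for Apoh to -0.86 for Apoa4, and 13 of 14 were within 0.5.

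Lists of nitrogen and fuel metabolism lay near naive by their medians. Among 11 genes of the urea cycle and glutamine metabolism none was 2-fold apart, against 11.2% of all genes. Arginase, Arg1, was at 0.02 and glutamine synthetase, Glul, at 0.05. The lowest members were Slc25a13 at -0.91 and Glud1 at -0.65. Amino acid catabolism had a median of -0.20 over 28 genes. Of these, 17 were within 0.5, a smaller share than the 69.9% of all genes. Only 9 of the 28 were above naive, against 49.8% of all genes. The lowest were Kynu (-1.0) and Cth (-0.94). Sds, the serine dehydratase that feeds gluconeogenesis, was the 1 member at least 2-fold higher (1.81). Tdo2, which opens tryptophan breakdown, was at 0.37 in the siRNC liver, against 1.39 in the saline and 1.41 in the miR-27b liver. Of 23 genes of fatty acid oxidation and ketogenesis, 20 lay within 0.5 and the median was -0.13. Hadhb of the trifunctional protein was at 0.18 and Cpt1a, which lets fatty acids into mitochondria, at -0.56. Angptl4, an inhibitor of lipoprotein lipase that PPAR receptors and fasting induce, was at -3.11 in the siRNC, -1.19 in the saline and -0.41 in the miR-27b liver.

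**Figure D2:**
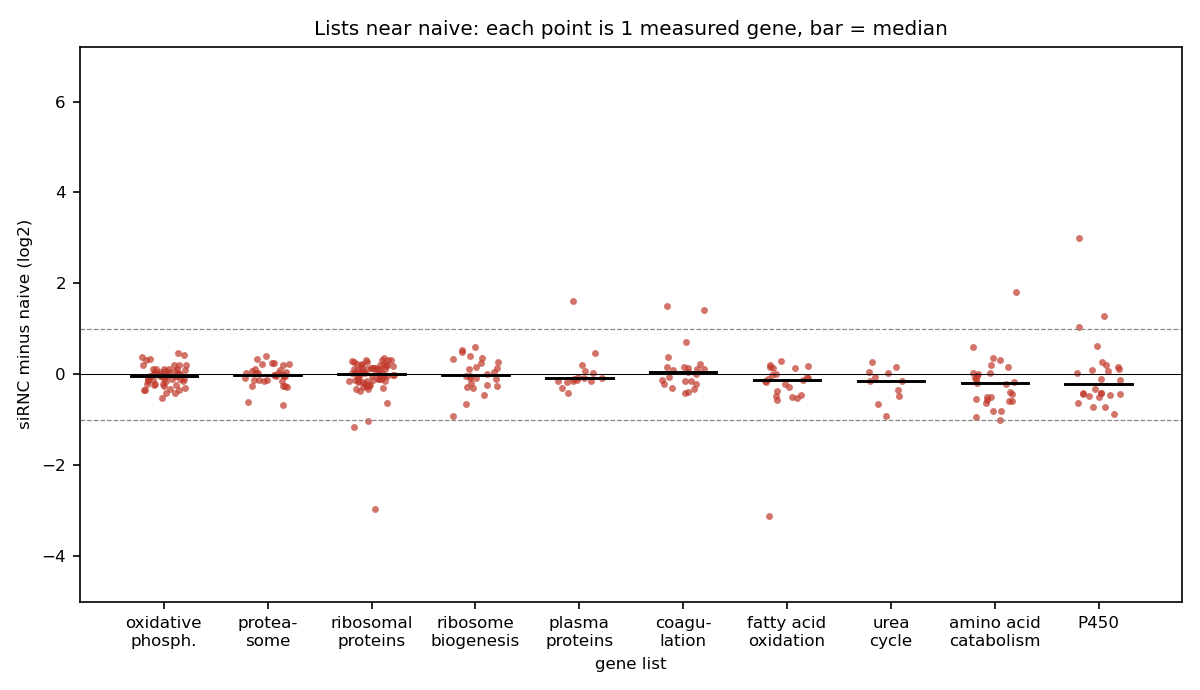
Log2 difference of the siRNC from the naive liver for each measured member of 10 lists near naive; each point is 1 gene, bars are list medians and dashed lines mark 2-fold. Points of oxidative phosphorylation and the proteasome all lie within 2-fold, while Rps2 (-2.97) and Angptl4 (-3.11) lie far below their lists and the P450 gene Cyp2c24 (2.99) far above its own.

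Glucose genes were near naive as a list, with a median of -0.18. Of 17 measured members, 9 were within 0.5, a smaller share than the 69.9% of all genes. Without the filter the list lay in between. The glucose transporter Slc2a2 was at 0.37. G6pc, the catalytic subunit of glucose 6-phosphatase, was at -2.67 in the siRNC liver, -1.02 in the saline liver and -0.46 in the miR-27b liver. The siRNC library was the lowest of the 4 for this gene. Fbp1, fructose bisphosphatase, was at 0.04, and Pck1, which starts gluconeogenesis, at -0.87 in the siRNC against 0.25 in the saline liver. Ppargc1a, a coactivator of gluconeogenic and mitochondrial genes, was at 1.10, against 1.83 in the saline and 2.96 in the miR-27b liver. Glycogen genes lay in between with a median of -0.14, while the saline liver was away from naive at -0.54. The glycogen-targeting phosphatase subunit Ppp1r3c was far below naive in all 3 hepatectomised livers, at -3.65, -3.40 and -3.22 in the siRNC, saline and miR-27b libraries. Its relative Ppp1r3b was at -0.75 in the siRNC liver and at -2.64 and -2.63 in the saline and miR-27b livers. The liver glycogen synthase, Gys2, was at 0.36.

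Lipid synthesis was on the other side of naive from the saline liver. The 18 genes of fatty acid synthesis had a median of 0.66 in the siRNC liver and -0.44 in the saline liver. In the siRNC liver 5 of 18 were at least 2-fold higher, against 7.11% of all genes. The 1 member 2-fold lower was Gpam at -1.0, which starts glycerolipid synthesis. The elongase Elovl6 was at 1.79 in the siRNC, -0.09 in the saline and 0.52 in the miR-27b liver. Pnpla3, a lipid droplet protein, was at 1.76, -1.82 and 1.29 in that order, and the lipogenic regulator Thrsp at 1.64, 0.01 and 1.34. Acly, which makes the acetyl-CoA for the pathway, was at 1.16, -0.44 and 0.61. Srebf1, the transcription factor that drives lipogenesis (gene ID 78968), was at 0.04 in the siRNC liver, against -2.12 in the saline and -0.67 in the miR-27b liver. The siRNC and naive libraries were thus alike for Srebf1 itself. In the list 14 of 18 genes were above naive, against 49.8% of all genes. Among enzymes that Srebf1 is known to induce, Fasn was at 1.14 and Scd at 0.22, while Scd1 was at -0.87. The mean of the list was 0.498, just under the limit of 0.5 for away, so its class rests on the choice of the median.

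Cholesterol synthesis and uptake had a median of 0.44 over 25 genes, with 22 above naive, 7 at least 2-fold higher and none 2-fold lower. Over all genes 49.8% were above naive and 7.11% at least 2-fold higher. Msmo1 (1.53) and Sqle (1.28) act on the way from squalene precursors to sterols, and in the saline liver they were at -0.31 and -0.09. The thiolase Acat2 was at 1.74 in the siRNC and 0.36 in the saline liver. For Mvd, which makes isopentenyl diphosphate, 63 reads were recovered in the naive, 58 in the saline, 144 in the siRNC liver and 73.8 in the miR-27b library. The siRNC library was the highest of the 4, and its difference from naive was 1.15 (95% interval 0.71 to 1.60). Hmgcs1, at the start of the pathway, was at 0.15 in the siRNC liver and at -1.55 and -1.35 in the saline and miR-27b livers. Insig2, which holds back the processing of SREBP factors, was at -2.45 and among the 10 lowest of the genes at high levels.

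Lipid droplet genes were near naive by their median of -0.14 over 17 genes, with 3 at least 2-fold lower, against 4.06% of all genes. The 3 were the droplet coat proteins Plin2 (-2.23) and Plin5 (-1.31) and the lipase inhibitor G0s2 (-2.04). None in the list was at least 2-fold higher. Plin5 rests on 16.8 reads in the naive and 7 in the siRNC library, and its interval of -2.83 to 0.02 includes 0. Plin2 was at -1.41 in the saline and -0.89 in the miR-27b liver. Lpin1, a phosphatidate phosphatase, was at -0.02 in the siRNC liver and at 2.38 in both the saline and the miR-27b liver, so naive and siRNC stood together for this gene. In the bile acid list, which lay in between at -0.36 over 17 genes, single members went in opposite directions. Cyp7a1, which catalyses the first step from cholesterol to bile acids, was at 2.68 in the siRNC, 0.41 in the saline and 2.02 in the miR-27b liver. The sterol exporters of the canalicular membrane Abcg8 and Abcg5 were at -1.83 and -1.45. For Abcg5, 156 reads were recovered in the naive, 120 in the saline, 59 in the siRNC liver and 38 in the miR-27b library, and the interval of the siRNC difference was -1.90 to -1.0.

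Drug metabolism was near naive for cytochromes P450, with a median of -0.22; 17 of 26 were within 0.5, no larger a share than the 69.9% of all genes. The members at least 2-fold higher were Cyp2c24 (2.99), the P450 reductase Por (1.28) and Cyp2c7 (1.04), and they were at 5.81, 2.23 and 1.17 in the saline liver. Conjugating enzymes lay in between at -0.31 over 26 genes, with the glutathione transferases Gsta2 at -2.52 and Gstm3 at -1.42 and the sulfotransferase Sult2a1 at 1.84. Members of these families share sequence, so reads may be split among them. Antioxidant targets of NRF2 were near naive by their median of -0.22 over 24 genes. Hmox1, haem oxygenase, was nonetheless at 2.19, near its 2.17 in the saline liver, and Gpx2, a glutathione peroxidase, was at 2.04 against 3.36. The metallothionein genes Mt2A and Mt1a, which bind zinc and copper, were at 2.99 and 1.60, against 3.95 and 2.58 in the saline liver. Hepcidin, Hamp, the hormone that lowers iron uptake, was at -1.25 in the siRNC, -0.49 in the saline and -5.41 in the miR-27b liver.

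Transcription factors that define the hepatocyte were near naive, with a median of -0.17 over 23 genes. Cebpa was at 0.07 and Nr5a2 at -0.02, while the xenobiotic receptor Nr1i3 (-1.28) and the oestrogen receptor Esr1 (-1.18) were at least 2-fold lower. Onecut1, a factor of hepatocyte and bile duct development, was at 3.62 in the siRNC and 2.68 in the saline liver but at -0.15 in the miR-27b liver. Growth hormone acts on the liver through STAT5, and its list lay in between at 0.25. Of 12 members, 4 were at least 2-fold higher and 2 that far below naive, against 7.11% and 4.06% of all genes. By its mean of 0.78 the list would count as higher. Cish, a feedback inhibitor that STAT5 induces, had 6 reads in the naive, 77 in the saline, 140 in the siRNC liver and 20 in the miR-27b library. All 3 hepatectomised livers were above naive and the siRNC liver was highest, at 4.51 (95% interval 3.34 to 5.97). The prolactin receptor Prlr was at 2.98 and close to that in the other 2 operated livers (3.08 and 3.03). The repressor Bcl6, which STAT5 lowers, was at -2.70, against -4.67 in the saline liver. The receptor Ghr (-0.00) and the hormone Igf1 (0.09) were at the naive level.

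Among lists with at least 5 measured members, those of clock outputs and repressors had the medians furthest from naive after mitosis and red cell genes. In this clock Clock, its partner Arntl (also called Bmal1) and their relative Npas2 activate the Per, Cry and Nr1d genes, whose products shut the activators off again, and many liver genes follow in a daily rhythm. Stretches before the start sites of a gene of each arm are shown because the arms stood on opposite sides of naive. They were taken from RefSeq on the GRCr8 build, which is not the rn5 build of the study, each is 100 bases, and capitals mark a motif match.
Per2, chr9:99497144-99497243, minus strand: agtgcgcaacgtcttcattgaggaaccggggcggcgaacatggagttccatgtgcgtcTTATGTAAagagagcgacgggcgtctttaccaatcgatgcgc
Tef, chr7:115206577-115206676, plus strand: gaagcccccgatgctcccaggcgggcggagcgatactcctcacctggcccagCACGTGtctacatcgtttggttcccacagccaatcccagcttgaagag
Arntl, chr1:176766228-176766327, plus strand: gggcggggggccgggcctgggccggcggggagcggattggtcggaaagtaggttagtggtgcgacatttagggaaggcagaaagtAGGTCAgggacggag
The D-box TTATGTAA, bound by Dbp, Tef and Hlf, was searched on both strands in the 250 bases before each start, as were the E-box CACGTG, bound by Clock and Arntl, and the core AGGTCA, bound by the Rora and Nr1d families. Of 23 genes in the 3 clock lists, 18 had a sequence. The D-box was found in 1 of them (Per2), the E-box in 4 (Bhlhe40, Bhlhe41, Ciart and Tef) and the core AGGTCA in 3 (Arntl, Nr1d2 and Usp2), and 10 held none of these letters. Over all 33469 RefSeq stretches of that length the shares were 0.828%, 5.59% and 14.1%. Each stretch shown holds 1 match, and a match is a description and not a measured site.

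All 4 measured activators were at least 2-fold below naive in the siRNC liver, against 4.06% of all genes. Arntl (gene ID 29657) was at -3.20 in the siRNC, -1.07 in the saline and -0.91 in the miR-27b liver. Npas2 had 195 reads in the naive, 86.4 in the saline, 28 in the siRNC liver and 110 in the miR-27b library, and its difference in the siRNC liver was -2.84 (95% interval -3.47 to -2.26). Clock was at -1.85 and Rora, which activates Arntl, at -1.71. The siRNC liver was thus the lowest of the 4 for each activator.

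Of 8 measured repressors, 5 were at least 2-fold higher in the siRNC liver, against 7.11% of all genes. The repressor median was 1.33 in the siRNC and -0.23 in the saline liver. Per3 was at 5.53 in the siRNC, 4.0 in the saline and 2.10 in the miR-27b liver. Per2 was at 2.08 in the siRNC liver but at -0.29 in the saline and -1.75 in the miR-27b liver, so the siRNC library alone was above naive. Per1 was at 1.05, and the nuclear receptors Nr1d1 and Nr1d2, which repress Arntl, were at 1.88 and 1.61. Cry1, with 78 reads in the naive, 30 in the saline, 62 in the siRNC liver and 31 in the miR-27b library, was at -0.37 with an interval of -0.88 to 0.13 that includes 0. Bhlhe40, a further repressor, was at -0.99, against -2.25 in the saline liver.

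Of 7 measured output genes, 4 were at least 2-fold higher and 1 was 2-fold or more lower. Over all genes these shares were 7.11% and 4.06%. Dbp, a D-box activator with a strong daily rhythm (gene ID 24309), was at 6.72, the highest value of all measured genes, against 5.13 in the saline and 3.54 in the miR-27b liver. The order siRNC, saline, miR-27b and naive also held for Per3. Reads of Dbp and Per3 were not recovered and neither gene was in the stricter level set, so their levels in the naive liver are not known. The deubiquitinase Usp2 was at 2.33, Nampt, which makes NAD, at 1.74 and Tef at 1.42. Nfil3, which competes with Dbp for the D-box, was at -1.30 in the siRNC liver and at 0.21 and 0.40 in the saline and miR-27b livers. With 1 library a group, the hour of collection and the treatment cannot be told apart. This touches every gene with a daily rhythm, among them Cyp7a1, Srebf1 and G6pc.

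**Figure D3:**
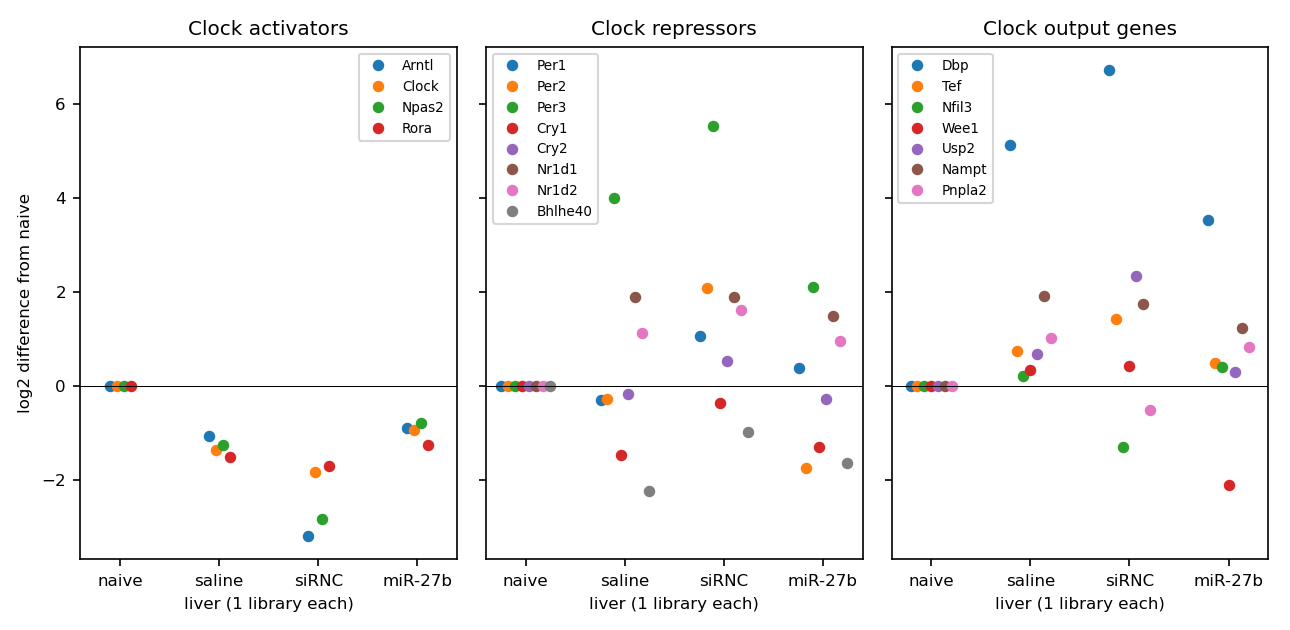
Log2 difference from naive of each measured clock gene in the 4 livers, with 1 library each and the naive liver at 0 by construction; points of 1 gene share a colour. In the siRNC liver all 4 activators lie between -3.20 and -1.71, while Dbp (6.72) and Per3 (5.53) lie above every other gene shown.

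Cell division genes were below naive. Of 16 measured genes of mitosis and the spindle, 10 were at least 2-fold lower in the siRNC liver, against 4.06% of all genes. None was above naive, against 49.8% of all genes. The median of the list was -2.60, against -1.64 in the saline and -0.72 in the miR-27b liver. Cdk1, the kinase that starts mitosis, was at -4.24 in the siRNC, -1.71 in the saline and -0.32 in the miR-27b liver. Its cyclin Ccnb1 was at -3.74, the kinesin Kif2c at -3.31 and the proliferation marker Mki67 at -2.26. Ccna2 had 26.5 reads in the naive, 4.0 in the saline, 2.40 in the siRNC liver and 16 in the miR-27b library, at -3.51 with an interval of -6.86 to -1.74. Others were close to naive, such as the kinesin Kif11, with 26 reads in the naive and 24 in the siRNC library (-0.16, interval -1.02 to 0.70), and Aurka at -0.25. Of the other 16 listed genes, 5 were at 0 in all libraries and 11 did not pass the filter. A gene can pass the filter through the naive library alone, so the measured members are weighted to genes that were high there. Over the 27 genes with any value the median was -2.42.

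S phase genes were near naive as a list, with a median of -0.22. Of 20 measured members, 11 were within 0.5, a smaller share than the 69.9% of all genes. The 1 member at least 2-fold lower was Rrm2, the subunit of ribonucleotide reductase that supplies deoxynucleotides. Rrm2 had 230 reads in the naive, 45 in the saline, 18 in the siRNC liver and 114 in the miR-27b library. Every operated liver was below naive and the siRNC liver was lowest, at -3.72 (95% interval -4.5 to -3.02). The replication helicase subunits Mcm3 and Mcm4 were at 0.44 and 0.67, the latter with an interval of -0.03 to 1.41. Cell cycle entry genes were near naive, with 11 of 15 within 0.5, a share like the 69.9% of all genes. Ccnd1, the cyclin D1 that growth factors induce, was at -2.01 in the siRNC, -0.73 in the saline and -2.50 in the miR-27b liver. The cycle inhibitor Cdkn1a (p21) was at -2.94 in the siRNC liver and at -0.64 and -0.16 in the other 2 operated livers. Other stress genes of the p53 and GADD45 list were low in the siRNC liver too, among them Gadd45g (-1.98) and Gadd45b (-1.82). In that list 4 of 18 were at least 2-fold lower, against 4.06% of all genes. Fas, a death receptor, was at 1.33 (interval 0.60 to 2.15).

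Growth factors and their receptors had a median of -0.22, which put the list near naive, but 8 of 14 were within 0.5, no larger a share than the 69.9% of all genes. Hgf was at 0.45, its receptor Met at 0.18, the activating protease Hgfac at 0.00 and the EGF receptor Egfr at -0.79. Fgf21, a fasting and stress hormone, had 76.9 reads in the naive, 14.1 in the saline, 10.8 in the siRNC liver and 32 in the miR-27b library, and was at -2.88 (interval -3.91 to -1.93). TGF beta signalling lay in between with a median of -0.11 over 20 genes, against -0.45 over the 7 in the stricter level set and a mean of 0.01. Of the ligands, Tgfb2 was at 3.54 and Tgfb3 at 2.25, with 3.82 and 1.71 in the saline liver, while Tgfb1 was at 0.78. No reads were recovered for these ligands, and a gene can pass the filter through the operated livers alone. The feedback inhibitor Smad7 had 176 reads in the naive, 59 in the saline, 61 in the siRNC liver and 47.3 in the miR-27b library. The operated livers were alike and below naive for this gene, and its siRNC difference was -1.57 (interval -2.01 to -1.14). Immediate early genes, which stress and serum induce within minutes, had a median of -0.14 in the siRNC liver and -0.51 in the saline liver. Among them Fos was at -3.06 and Dusp1 at -2.27, while Klf6 was at 1.22 and Myc at 0.96.

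Inflammatory functions divided by arm. Positive acute phase proteins, which hepatocytes secrete under interleukin 6 and interleukin 1, were higher, with a median of 0.84 in the siRNC, 0.85 in the saline and 1.46 in the miR-27b liver. In the siRNC liver 18 of 21 were above naive, 7 were at least 2-fold higher and Hamp was the 1 at least 2-fold lower. Over all genes 49.8% were above naive and 7.11% at least 2-fold higher. Kng1, a kininogen of the rat acute phase, was at 3.0, Kng2 at 2.12 and the acid glycoprotein Orm1 at 2.08; reads of Kng1 and Kng1l1 (2.78) may be shared. A2m, the macroglobulin that is a major acute phase protein of the rat, was at 1.74 in the siRNC, 0.47 in the saline and 2.31 in the miR-27b liver. The fibrinogen chains Fga, Fgb and Fgg were at 0.50, 0.70 and 0.62, and Crp was at 0.14.

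The signalling genes upstream differed from one another in how the operated livers were ordered. The median of the interleukin 6 and STAT3 list was at 0.31 in the siRNC, 0.71 in the saline and 1.52 in the miR-27b liver, over 13 genes. Socs3, the STAT3 feedback inhibitor, was at 0.86, 2.05 and 2.71 in that order, and the STAT3 target Bcl3 at 0.15, 1.56 and 2.49. Il1rn, the antagonist of the interleukin 1 receptor, was at -0.10, 0.71 and 2.39. Osmr, the oncostatin M receptor, was far above naive throughout at 3.38, 3.14 and 3.69, and Fgl1 was at 1.51, 1.17 and 1.85. In the list of cytokines and NF-kB targets, with medians of 0.47 in the siRNC and 0.50 in the saline liver, the neutrophil attractant Cxcl1 was at 0.96, 4.0 and 7.64. No reads were recovered for Cxcl1, so its level in the naive liver is not known. For Cxcl16, 12 reads were recovered in the naive, 37 in the saline, 46 in the siRNC liver and 39 in the miR-27b library, all 3 operated livers being above naive and the siRNC liver highest (interval 0.96 to 2.95). At the higher level filter the median of the STAT3 list was 0.69 over 7 genes in the siRNC liver. By its mean of 0.68 the STAT3 list would also count as higher. Its place in between thus rests on the filter and on the median. The cytokine list would count as higher by its mean of 0.56, or without a filter by its median of 0.80 over 16 genes.

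Interferon response and MHC class I genes were near naive, with medians of 0.02 over 24 genes and 0.01 over 18. The antiviral genes Mx1 and Oas2 stood out in the interferon list. Mx1 had 36 reads in the naive, 127 in the saline, 116 in the siRNC liver and 129 in the miR-27b library, at 1.65 (interval 1.10 to 2.23). The 3 operated livers were alike for Mx1. Complement genes lay in between at 0.39 over 29 genes, with C7 highest at 2.38 and the mannose-binding lectin Mbl2 lowest at -1.17.

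Macrophage markers were above naive. Of 23 measured markers of macrophages and Kupffer cells, 22 were above naive and 13 at least 2-fold higher. Over all genes these shares were 49.8% and 7.11%. The median of the markers was 1.02, against 1.26 in the saline and 1.48 in the miR-27b liver. The scavenger receptor Marco was at 2.01, lysozyme Lyz2 at 1.95, the signalling adaptor Tyrobp at 1.90 and Cd68 at 1.61. Clec4f, a marker of resident Kupffer cells, was at 0.93, and the monocyte receptor Cd14 at -0.56. Of MHC class II genes, by which such cells present antigen, 7 of 10 were at least 2-fold higher, against 7.11% of all genes. The median of the class II genes was 1.22. RT1-DMb was at 1.87, RT1-Ba at 1.71 and the class II activator Ciita at 1.35, with 8 reads in the naive and 21 in the siRNC library (interval 0.12 to 2.74). Macrophage markers moved with these genes and their part in the class II values was not tested. Of 12 neutrophil markers 3 were measured, S100a9 (3.96), Csf3r (2.60) and S100a8 (2.21). Reads of these 3 were not recovered, and with a pseudocount of 5 their median was 1.72 in place of 2.60. A marker of any cell type can pass the filter through the operated livers alone. The granule genes Mpo, Elane, Ngp, Camp and Np4 and the secreted Retnlg were at 0 in all 4 libraries. Of 16 T and NK cell markers 4 were measured, from -0.75 for Lck to 1.18 for Prf1 (6 and 14 reads in the naive and siRNC libraries, interval -0.29 to 2.85), and of 10 B and plasma cell markers 2, Cd22 at 1.45 and Blk at 2.39.

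**Figure D4:**
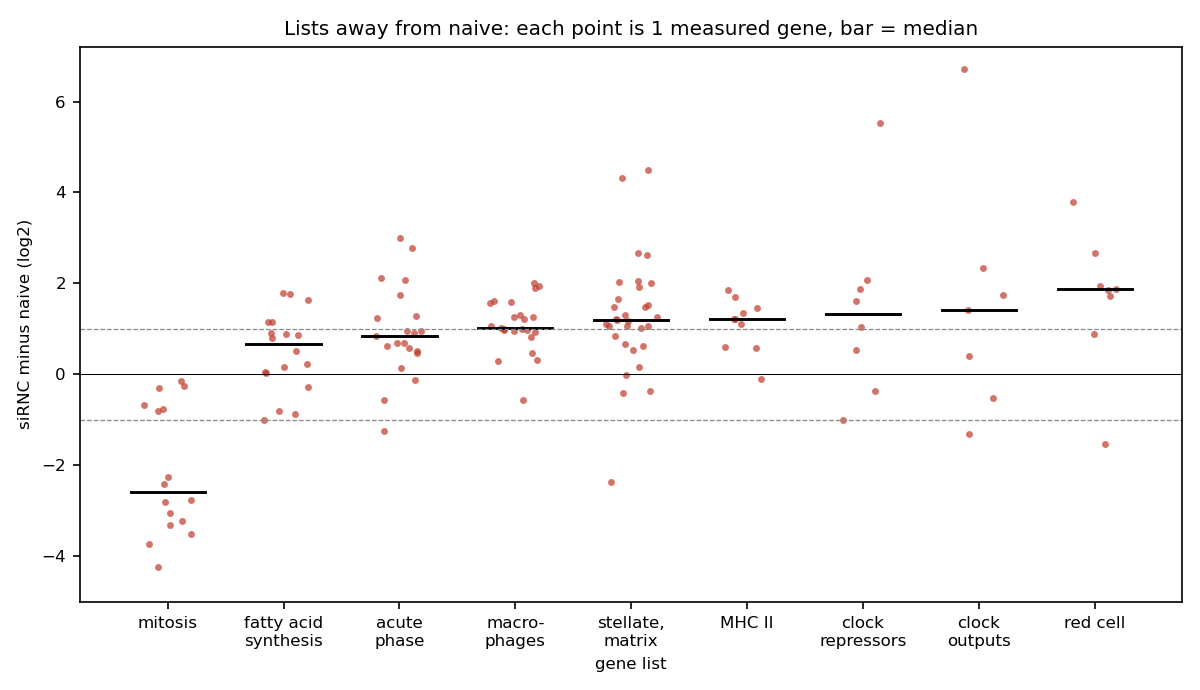
Log2 difference of the siRNC from the naive liver for each measured member of the 9 lists away from naive; each point is 1 gene, bars are list medians and dashed lines mark 2-fold. The mitosis genes all lie below 0, most stellate and matrix genes lie above 1, and Col1a1 (4.5) and Lum (4.32) stand apart from the rest of their list.

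Stellate cell and matrix genes were the largest group above naive. Of 31 measured members 22 were at least 2-fold higher, against 7.11% of all genes, and the median was 1.18 in the siRNC, 0.79 in the saline and 1.19 in the miR-27b liver. The fibrillar collagen chains Col1a1, Col1a2 and Col3a1 were at 4.5, 2.0 and 1.93, and in the saline liver at 1.75, 0.58 and 1.28. Lum, a proteoglycan that orders collagen fibrils, was at 4.32 in the siRNC liver but at -0.50 in the saline and 0.03 in the miR-27b liver, so the siRNC library alone was far above naive. Its relative Dcn was at 1.03, -0.06 and -0.38 in that order. Basement membrane chains did not share this order, with Col4a1 at 1.65, 1.55 and 2.27. Acta2, the actin of activated stellate and smooth muscle cells, had 12 reads in the naive, 22 in the saline, 51.2 in the siRNC liver and 89 in the miR-27b library. Both livers given cells were above the saline liver for Acta2, and the siRNC difference was 2.05 (interval 1.12 to 3.09). Tagln, a further contractile gene, was at 2.62. Loxl1, which cross-links elastin, had 6 reads in the naive, 20 in the saline, 39 in the siRNC liver and 14 in the miR-27b library, at 2.66 (interval 1.41 to 4.19). Fibronectin, Fn1, which hepatocytes also make, was at -0.02, and the matrix protease Mmp14 at -0.36. Lox was at -2.37 and was low in all 3 operated livers.

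Markers of mesenchymal stromal and adipose cells were near naive by a median of 0.02, with 6 of 9 measured members within 0.5, a share like the 69.9% of all genes. By its mean of 0.33, or without the filter, the list lay in between. Pdgfra was at 0.04, Cd44 at 0.06, Eng at 0.02 and Nt5e at -0.47, and the adipocyte genes Adipoq, Plin1 and Lep were at 0 in all 4 libraries. Fabp4, a lipid carrier of adipocytes, endothelium and macrophages, was the 1 member at least 2-fold higher, at 3.37. It was at 2.97 in the saline liver and at 4.5 in the miR-27b liver. No source used here names the donor of the cells, and the part of injected cells in the Fabp4 and matrix values was not tested.

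Endothelial genes lay in between at 0.41 over 19 genes, against 0.60 in the saline and 0.78 in the miR-27b liver. The sinusoidal lectin Clec4g was at 1.17, Plvap of endothelial pores at 1.08 and the junction protein Cdh5 at 1.06, while the VEGF receptor Kdr was at -0.14. Tek, the angiopoietin receptor, had 71 reads in both the naive and the siRNC library (interval -0.54 to 0.45). Bile duct and progenitor markers were near naive at 0.10 with 6 of 14 measured, and Krt7 and Sox9 were at 0 in all 4 libraries. Krt19, a keratin of bile ducts, had 5 reads in the naive, 21 in the saline, 6 in the siRNC liver and 15 in the miR-27b library, and the interval of its siRNC difference was -1.75 to 2.27. Gpc3, a fetal liver proteoglycan, was at 2.66, while the fetal albumin relative Afp was at -0.57.

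Among lists with at least 5 measured members, red cell genes had the highest median, 1.87. The median of red cell genes was 2.35 in the saline and 2.0 in the miR-27b liver. Of 8 measured members, 6 were at least 2-fold higher in the siRNC liver, against 7.11% of all genes. The haemoglobin genes Hba1, Hba2, Hbb-b1 and Hbb were at 1.72, 1.86, 1.88 and 1.95. They share sequence and are not separate signals. The 1 member at least 2-fold lower was Hbq1, also a haemoglobin gene, at -1.52. It was at 0.05 in the saline and -0.20 in the miR-27b liver. The red cell anion exchanger Slc4a1 was at 3.80 and Alas2, which starts haem synthesis in red cell precursors, at 2.67. The erythroid genes Gata1, Rhag and Ank1 were at 0 in all 4 libraries. Macrophage and neutrophil markers moved with these genes, and the part of blood in those values was not tested.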

How the data were processed

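Poly(A)-selected RNA of 4 livers was prepared with the TruSeq protocol and sequenced on a MiSeq, per the labels' protocols. Each column of the deposited table was matched to its sample by title, each group holds 1 library, and no column lacked a sample. Per the submitters' processing notes, DESeq (version not stated) and the build rn5 were used; no source used here gives the aligner or counter. The deposited values are log2 values that the authors normalized, as their name and their range on both sides of 0 show; their steps fit reads divided by a size factor and raised to 1 where lower, then put on the log2 scale and set to a baseline for each gene. This hides the level of a gene, so reads were inferred from the spacing of its 4 values (posterior of at least 0.9, partial reads in steps of 1 in 101), which gave reads for 3072 genes.

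Genes entered the comparison if their mean reached 10 normalized reads or, where reads were not inferred, with a probability of at least 0.5 of a mean of at least 16, judged from the rounding of the stored numbers. The stricter set of 3051 genes used 50 and 256. With 16 reads a library, counting alone gives a log2 difference an SD of 0.51, and with 256 reads 0.13. No test was made. Of 1169 genes in 53 lists, 1136 were in the table and 978 were measured. The 4 lists with fewer than 5 measured members, B and plasma cells, T and NK cells, neutrophils and clock activators, received no class.

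The members and lists were chosen with earlier results of these data known. Genes named were the 10 highest and 10 lowest in the stricter set, 11 fixed genes, and in each list the 4 furthest above, the 4 furthest below and the 2 nearest naive. A few of these are not reported here, others only for length. Other list members and the genes of the lists without a class were named after their values were seen. Promoter stretches came from RefSeq (GRCr8). The procedure was tested on simulated data. Python 3.11.15, numpy 2.4.6, pandas 2.3.3, scipy 1.17.1 and matplotlib 3.10.9 were used.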

Additional observations from a re-analysis of the deposited data

How the results depend on the processing

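The numbers of genes at least 2-fold apart depended on the filter for low levels. Without a filter 1145 genes were higher and 797 lower in the siRNC liver, and in the stricter set 137 were higher and 70 lower. A pseudocount of 5 normalized reads or centring on the median gene kept both counts within 1.5 times. The number of lists near naive ranged from 18 to 23 over the 5 alternatives, and that of lists away from naive from 6 to 12. With the mean in place of the median, fatty acid oxidation, lipid droplets, bile duct markers, S phase, cell cycle entry, mesenchymal markers and growth factors were no longer near naive. Without a filter, glucose genes and mesenchymal markers left that class. Lipid droplets, growth factors, heat shock proteins and NRF2 targets left it in the stricter set. Cholesterol synthesis was near naive in the stricter set (0.23 over 15 genes) and higher by its mean (0.65). In the stricter set the mitosis list had no member left, and both clock lists and MHC class II had fewer than 5. No list away from naive changed sign under any alternative that left it at least 5 members. No paired analysis was possible because each group holds 1 library, and no replicate could be left out. Depth limits genes of few reads: inferred reads carry counting error only, and differences between animals were not measured.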

Other observations

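Several genes at high levels that belong to none of the lists were also among the 10 furthest from naive in each direction. Alox15, a lipoxygenase of macrophages and eosinophils, was at 4.31 in the siRNC liver, 4.72 in the saline liver and 5.60 in the miR-27b liver. Frem1, a basement membrane protein, was at 4.21, 3.61 and 3.35 in that order. Hsd17b2, which inactivates sex steroids, was at 3.27, 1.52 and 0.53, so the siRNC liver was highest. Inmt, a methyltransferase of tryptamine, was at -2.24, -2.99 and -4.89. The stress hormone Gdf15 had 192 reads in the naive, 43.6 in the saline, 38 in the siRNC liver and 31.04 in the miR-27b liver, at -2.38 in the siRNC liver (95% interval -2.92 to -1.87). Adm, the vasodilator adrenomedullin, was at -2.35 in the siRNC liver but at 1.59 and 2.30 in the saline and miR-27b livers.

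Among pericentral genes and Wnt targets, which mark hepatocytes around the central vein, the median was -0.13 over 13 genes. The Wnt feedback gene Axin2 was at -1.50 and the repressor Tbx3 at -2.89, against -1.25 and -1.36 in the saline liver. The pericentral enzymes Cyp1a2 (0.17) and Glul (0.05) were close to naive. In the ATF4 and unfolded protein list the median was 0.27 over 23 genes. Asns, asparagine synthetase, had 23 reads in the naive, 77 in the saline, 66.3 in the siRNC liver and 54 in the miR-27b liver (interval of the siRNC difference 0.78 to 2.23), all 3 operated livers lying above naive.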
